A study of Homo sapiens with 43 samples.

Results

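The epithelial junction and splicing identity genes are 10 genes that carcinoma cells use to hold an epithelial state: CDH1, EPCAM, CLDN3, CLDN4, CLDN7, GRHL2, ESRP1, ESRP2, RAB25 and MUC1. They were taken by symbol, and 10 of 10 were found among the 18085 genes of the H2087 tables and the 25369 genes of the HCC1954 tables. RNA sequencing of total RNA was done on H2087, an established lung cancer line labelled as an adenocarcinoma, and on HCC1954, an established breast cancer line. Both lines came as parental cells and as derivatives called latency-competent (LCC), which the labels describe as isolated from organs without a bioluminescence signal, for HCC1954 from mice. All groups were grown for 48 h below confluence in either mitogen-low medium (MLM) or mitogen-rich medium (MRM). In H2087 each medium had 2 parental libraries and 6 LCC derivatives, LCC1 to LCC6, with 1 library each, while a parental library labelled 3 in MLM had no column and was not analysed here. In HCC1954 each medium had 3 parental libraries and 4 LCC libraries, of which 2 were of LCC1 and 2 of LCC2. The comparisons ask how each derivative differs from its parental line in each medium and how the media differ. Of 43 samples, 31 were RNA and 12 were chromatin samples, which were not analysed here.

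E-cadherin, encoded by CDH1, is the calcium-dependent adhesion protein of the adherens junction, and EPCAM is an adhesion protein of the lateral membrane of epithelial cells. Claudins seal tight junctions, the grainyhead factor GRHL2 activates CDH1 and claudin genes, ESRP1 and ESRP2 direct the epithelial choice of exons in genes such as FGFR2 and CD44, RAB25 recycles membrane proteins to the apical surface, and MUC1 is an apical transmembrane mucin. Repressors of the ZEB, SNAI and TWIST families switch such genes off during epithelial-mesenchymal transition, and the ZEB and SNAI factors bind E-box sequences with the core CAGGTG.

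The RefSeq promoter windows of 4 members are shown because these genes moved very differently in H2087: the range over the libraries was 9.48 log2 units for RAB25 and 6.92 for MUC1 but 3.95 for CLDN3 and 2.80 for CLDN4. Each is the 250 bases before the annotated start, 5′ to 3′ on the gene's strand in build GRCh38.p14, with every CAGGTG in capitals, which reads as CACCTG where it lies on the opposite strand. RAB25 lies at chr1:156060910-156061159 on the plus strand, MUC1 at chr1:155192916-155193165 on the minus strand, CLDN3 at chr7:73770271-73770520 on the minus strand and CLDN4 at chr7:73830746-73830995 on the plus strand.
RAB25: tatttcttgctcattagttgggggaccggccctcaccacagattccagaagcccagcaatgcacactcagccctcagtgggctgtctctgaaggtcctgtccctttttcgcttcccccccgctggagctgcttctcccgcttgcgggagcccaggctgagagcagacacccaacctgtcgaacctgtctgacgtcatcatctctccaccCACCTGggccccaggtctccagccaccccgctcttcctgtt
MUC1: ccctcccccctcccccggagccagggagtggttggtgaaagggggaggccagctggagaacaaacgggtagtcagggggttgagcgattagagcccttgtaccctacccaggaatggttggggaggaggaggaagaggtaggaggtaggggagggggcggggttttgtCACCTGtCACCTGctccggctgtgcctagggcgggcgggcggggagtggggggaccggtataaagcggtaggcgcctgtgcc
CLDN3: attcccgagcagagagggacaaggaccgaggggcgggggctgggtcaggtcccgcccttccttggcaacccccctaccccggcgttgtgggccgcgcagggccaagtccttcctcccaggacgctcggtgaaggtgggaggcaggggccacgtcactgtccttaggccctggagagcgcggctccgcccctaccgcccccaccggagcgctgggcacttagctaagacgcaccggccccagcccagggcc
CLDN4: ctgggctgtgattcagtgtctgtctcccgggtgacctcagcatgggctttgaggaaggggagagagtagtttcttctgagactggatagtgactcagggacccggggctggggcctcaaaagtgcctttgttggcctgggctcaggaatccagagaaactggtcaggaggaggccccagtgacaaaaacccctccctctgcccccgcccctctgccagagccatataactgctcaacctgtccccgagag
The RAB25 window held 1 motif, with its first base at -41 from the start, and the MUC1 window held 2, at -82 and -75. The windows of CLDN3, CLDN4 and CLDN7 (chr17:7263214-7263463, minus strand) held 0. Of 35116 RefSeq windows of the same length, 6143 (17.5%) held the motif on either strand, and 5 of 10 members matched an entry. No window was read for EPCAM and ESRP2, nor for CDH1, GRHL2 and ESRP1, whose ranges in H2087 were 9.54, 9.88 and 8.83. The windows therefore do not show how the motif and the range go together over the members. A match in these letters is a description and not evidence of binding.

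Depth was 44.6 to 55.7 M reads per library in MLM and 12.1 to 20.8 M in MRM in H2087, and 24.9 to 28.1 M and 28.8 to 44.7 M in HCC1954, so medium and depth moved together. Values are normalized counts, reads divided by a size factor that is shared by both media of a line but not between the lines. Among lineage markers, NKX2-1 (NKX2.1 in the tables), a lung lineage factor, was at 2319 to 6892 in H2087 and 239 to 750.5 in HCC1954, and ERBB2, amplified in HCC1954, was at 246 to 4611 in H2087 and 119992 to 307479 in HCC1954. The whole list of 7 lung adenocarcinoma markers, led by KRT7 in both lines, went the other way, with sums of 15723 to 60133 in H2087 and 48336 to 116385 in HCC1954. These levels are set side by side across tables that were normalized separately. The library labelled LCC6 in MRM stood close to LCC5 in MRM. A chi-square of their reads over all genes gave 6.68 per degree of freedom, against 24.9 to 106 for the other 14 pairs of H2087 derivatives in MRM and 3.72 for the 2 parental libraries. Results that rest on LCC6 are therefore given with and without it. In HCC1954 the LCC1 libraries 1 and 2 in MRM differed by 108 per degree of freedom and parental library 3 in MLM differed from the other two by 58.4 and 58.7, while the other replicate pairs of this line lay between 1.85 and 7.10. Nothing in the labels says that replicates came from separate cultures, so p-values measure only the spread between these samples, which may be technical.

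In H2087 the derivatives did not share one epithelial state. LCC3 had nearly lost CDH1 in MLM, LCC6 had lost most of it in the same medium, and LCC4 carried it far above the parental cells in both media. GRHL2, ESRP1, RAB25 and, over a smaller range, MUC1 shared these lows and highs, with LCC3 lowest and LCC4 highest in both media and LCC6 next to lowest in MLM, whereas EPCAM, the claudins and ESRP2 stayed within a narrower band than these 5. This division of the members into 5 that swung most (CDH1, GRHL2, ESRP1, RAB25, MUC1) and 5 that moved less was made after their values were seen and carries no test.

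In MLM, CDH1 stood at 807 and 763 normalized counts in the parental libraries. The derivatives held 433 in LCC1, 986 in LCC2, 19.9 in LCC3, 5682 in LCC4, 1701 in LCC5 and 80.0 in LCC6. LCC3, LCC6 and LCC1 were thus below both parental libraries and LCC2, LCC5 and LCC4 above both, so the groups overlapped. LCC3 held 31 CDH1 reads, which is 39.5-fold below the parental mean with a 95% counting interval of 27.8 to 58.2. LCC6 held 130 reads, 9.80-fold below it with an interval of 8.22 to 11.8. LCC4 was 7.25-fold above the parental mean, with an interval of 6.95 to 7.55. These exact intervals cover counting error only, and a derivative has 1 library per medium, so its difference from the parental mean has no replicate check. In bulk RNA, fewer cells that express a gene and less RNA per cell cannot be told apart.

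In MRM the parental libraries held only 210 and 203 normalized counts of CDH1. The derivatives held 1832 in LCC1, 1035 in LCC2, 146 in LCC3, 15534 in LCC4, 2186 in LCC5 and 2317 in LCC6. LCC1, LCC2, LCC4, LCC5 and LCC6 were above both parental libraries and LCC3 alone was below them. LCC3 was at 0.702 of the parental mean, with a counting interval of 0.545 to 0.897 from 94 reads, and LCC4 was 74.9-fold above it, with an interval of 65.5 to 86.0. The loss of CDH1 relative to parental cells in LCC6 was seen in MLM only: in MRM this derivative was 11.2-fold above the parental mean, in the library that stood close to LCC5.

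GRHL2, the transcription factor of the group, gave the widest range of all members in H2087. In MLM the parental libraries held 130 and 113, and the derivatives 171 in LCC1, 280 in LCC2, 1.28 in LCC3, 1266 in LCC4, 268 in LCC5 and 5.54 in LCC6. LCC3 and LCC6 were below both parental libraries and the other 4 derivatives above both. The LCC3 value rests on 2 reads, a ratio to the parental mean of 0.0106 with a counting interval of 0.00128 to 0.0384. In MRM the parental libraries held 12.7 and 11.8, on 8 and 5 reads. The derivatives held 320.5, 288, 3.10, 2153, 204 and 198 in the order LCC1 to LCC6. LCC3 was the only derivative below the parental libraries, with 2 reads and a ratio of 0.251. The interval of that ratio, 0.0276 to 1.11, includes 1.

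The epithelial splicing factors differed from each other. ESRP1 in MLM was 299 and 292 in the parental libraries and 258, 378, 10.3, 3339, 792 and 26.5 in LCC1 to LCC6. LCC3 was 28.8-fold below the parental mean on 16 reads and LCC6 was 11.2-fold below it. In MRM the parental libraries held 41.1 and 35.4 of ESRP1 and the derivatives 578, 107, 21.7, 5111, 717 and 790, so that LCC4 was 132-fold above the parental mean. The parental ESRP1 values in MRM rest on 26 and 15 reads. ESRP2, its paralog with overlapping exon targets, ran only from 460 in LCC3 to 1718 in LCC4 in MLM, with parental libraries at 1199 and 1156, and from 827 to 2260 in MRM, with parental libraries at 1466 and 1557. In both media ESRP2 was above the parental libraries in LCC4 alone.

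RAB25 in MLM was 297 and 273 in the parental libraries and 171, 267, 3.20, 2091, 461 and 14.8 in LCC1 to LCC6. LCC3 was 88.9-fold below the parental mean on 5 reads, with a counting interval of 38.0 to 274. In MRM the parental libraries held 17.4 and 18.9 and the derivatives 492.6, 104, 10.8, 2999, 524 and 458, and LCC4 was 167-fold above the parental mean. The parental RAB25 values in MRM rest on 11 and 8 reads. MUC1 moved less: in MLM it was 1735 and 1758 in the parental libraries and 1279, 2336, 226, 6556, 2430 and 791 in LCC1 to LCC6. In MRM all 6 derivatives, LCC3 included, lay above the parental libraries for MUC1, at 3251, 6090, 1135, 27390, 3466 and 4184 against 555 and 636.

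**Figure D1:**
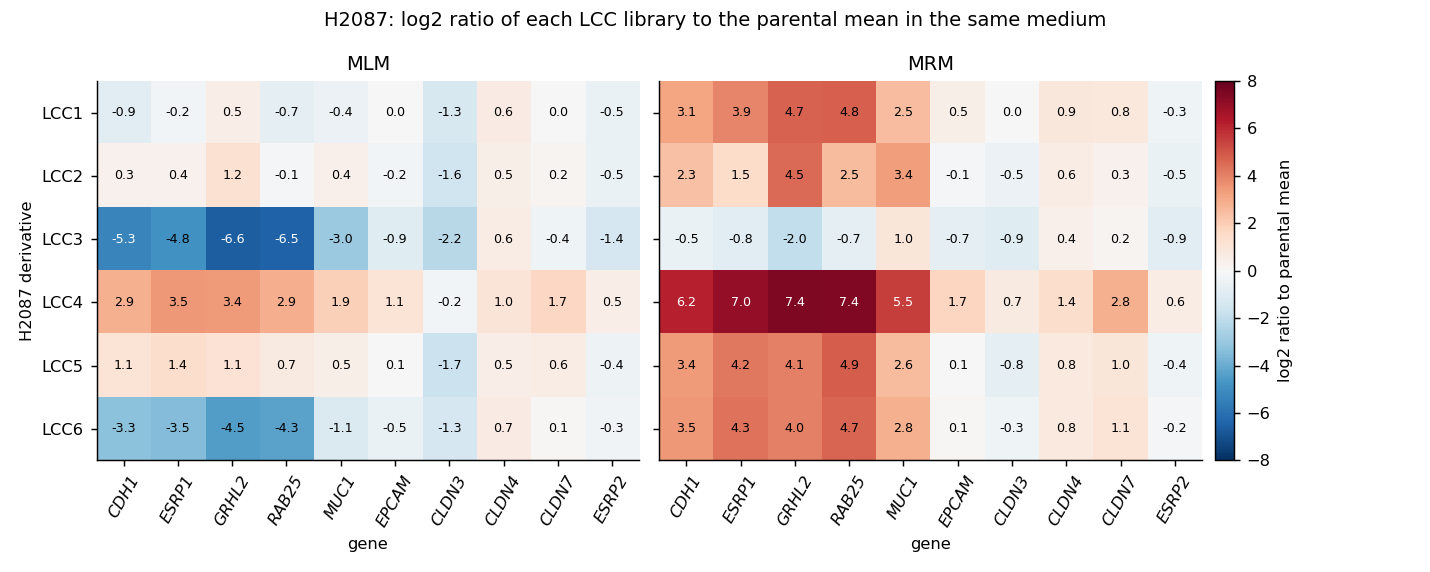
Log2 ratio of each H2087 LCC library (rows) to the parental mean in the same medium, for each of the 10 genes (columns), with MLM at left and MRM at right; color and printed value give the same ratio. LCC3 and LCC6 are far below the parental mean for CDH1, ESRP1, GRHL2 and RAB25 in MLM, LCC4 is far above it for these 4 in both media, and MUC1 runs from -2.95 in LCC3 in MLM to 5.54 in LCC4 in MRM.

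EPCAM had medians close to the parental level in both media, while CLDN7 was above it in MRM. EPCAM ran from 2749 in LCC3 to 11533 in LCC4 in MLM, with a median of 5017 against 5281 and 5335 in the parental libraries. In MRM it ran from 6501 in LCC3 to 35191 in LCC4, with a median of 11239 against 10947 and 10455. CLDN7 ran from 477 to 1944 in MLM, with a median of 687 against 590 and 635, and in MRM from 1233 to 7559, with a median of 1983 against 1128 and 943. All 6 derivatives were above both parental libraries for CLDN7 in MRM, from 1.17-fold in LCC3 and 1.27-fold in LCC2 to 2.12-fold in LCC6 and 7.17-fold in LCC4, though the fold change did not pass the test at 1.08 ± 0.59 (log2, SE), with a limma adjusted p of 0.241.

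CLDN4 and CLDN3, 2 claudins that lie near each other on chromosome 7, went separate ways. CLDN4 was 1671 and 1745 in the parental libraries in MLM and 2358 to 3445 in the derivatives, median 2616, with every derivative above both parental libraries. In MRM it was 4257 and 4377 against 5810 to 11625, median 7393, and again the groups did not overlap. CLDN4 was higher in LCC than in parental cells by 0.65 ± 0.13 in MLM (log2, SE; limma with Benjamini-Hochberg adjustment over all genes, adjusted p = 0.0148) and by 0.82 ± 0.22 in MRM (limma, adjusted p = 0.0400). The call was lost without either parental library, at limma adjusted p of 0.143 and 0.167 in MLM and 0.206 and 0.270 in MRM, and in MRM also without LCC1, LCC5 or LCC6. CLDN3 was 507 and 513 in the parental libraries in MLM and 109 to 434 in the derivatives, median 188, so that all 6 lay below. Its fold change of -1.39 ± 0.43 did not pass the test (limma adjusted p = 0.0673), except without LCC4, where it was -1.63 at 0.00873. In MRM the CLDN3 ranges overlapped, with 536 to 1696 in the derivatives and 993 and 1078 in the parental libraries.

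Of the 10 members, 1 was called higher in H2087 LCC than in parental cells in MLM and 0 were called lower, where 4.94% of the 12480 genes tested were called higher. In MRM 1 of 10 was called higher and 0 lower, where 8.76% of 12495 genes were called higher. The called member was CLDN4 in both media. The median fold change of the members was -0.47 in MLM and 2.01 in MRM (log2), beside a median over all genes of 0.01 and -0.00. CDH1 itself gave -0.85 ± 1.89 in MLM (95% interval -5.17 to 3.48; limma adjusted p = 0.814) and 3.01 ± 1.34 in MRM (interval -0.02 to 6.04; limma adjusted p = 0.162). Intervals this wide came with derivatives on both sides of the parental cells and do not show that the groups were alike. The sign for CDH1 in MLM depended on the scale of averaging. These fits average log2 values, whereas the mean normalized count was 1484 in LCC and 785 in parental cells. Without LCC3, 5 members were called higher in MRM: CLDN4, CDH1 at 3.71, GRHL2 at 4.85, MUC1 at 3.34 and RAB25 at 4.76 (log2), with limma adjusted p of 0.0345, 0.0140, 0.0298 and 0.0255 for the last 4. Without LCC4 in MRM, MUC1 was called as well, at 2.42 with a limma adjusted p of 0.0205. LCC3 was the lowest derivative for 10 of 10 members in MRM, so the rise of the effects without it was set in advance. Over 12 alternative settings in MRM, CDH1, GRHL2 and RAB25 were each called in 1 and MUC1 in 2.

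**Figure D2:**
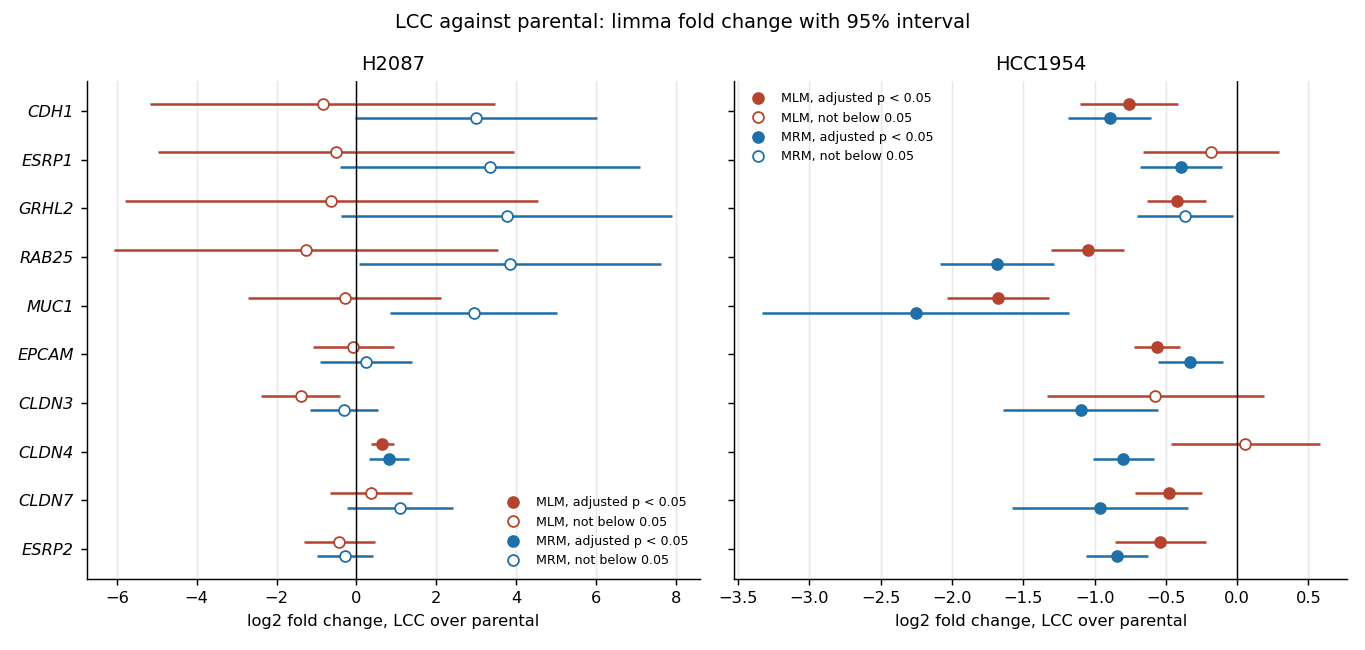
Log2 fold change of LCC over parental cells for each gene with its 95% interval from limma, H2087 at left and HCC1954 at right on separate scales, MLM in red and MRM in blue; filled points passed an adjusted p of 0.05. Only CLDN4 is filled in H2087, where the intervals of CDH1, ESRP1, GRHL2 and RAB25 span several log2 units, while in HCC1954 most points are filled and lie below 0.

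LCC4 had the highest value among the derivatives for 10 of 10 members in both media. LCC3 had the lowest for 10 of 10 in MRM and 9 of 10 in MLM, where the lowest derivative for CLDN4 was LCC2. Over the 16 H2087 libraries the range from lowest to highest (log2 of the normalized count plus 1) was 9.88 for GRHL2, 9.54 for CDH1, 9.48 for RAB25, 8.83 for ESRP1 and 6.92 for MUC1. It was 3.98 for CLDN7, 3.95 for CLDN3, 3.68 for EPCAM, 2.80 for CLDN4 and 2.29 for ESRP2. The median over genes was 0.915, and even the range of ESRP2 was wider than that of 90.7% of 10571 genes. The genes whose pattern over these libraries was most like that of CDH1, by the root mean square difference of centred log2 values among 10570 genes, were TMEM30B (0.641), PRSS8 (0.650), ESRP1 (0.686), PVRL4 (0.746), RAB25 (0.752) and ATP2C2 (0.775). GRHL2 ranked 14 and MUC1 ranked 19 in that order, while CLDN7 ranked 77, EPCAM 95, ESRP2 218, CLDN3 295 and CLDN4 433. The libraries share medium and depth, so the measure describes likeness and nothing more. Its values are not scaled, so a gene with a much narrower range than CDH1 ranks further from it even where both move the same way.

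ZEB1, a repressor of CDH1, was at 1909 and 1910 in the parental H2087 libraries in MLM and lowest in LCC4, at 1031, and highest in LCC3, at 1945. In MRM it was 1259 and 1153 in the parental libraries, lowest in LCC4 at 518 and highest in LCC3 at 1727. LCC6 in MLM, low in CDH1, held 1805 of ZEB1, below both parental libraries. SNAI2 was 112 and 128 in the parental libraries in MRM and 287 to 1097 in the derivatives (limma, adjusted p = 0.0142), and FN1, a matrix protein of mesenchymal cells, was higher by 3.81 ± 0.52 (log2, SE; limma, adjusted p = 0.00323). Of 7 repressors of CDH1 and mesenchymal markers tested, 2 were called higher in MRM and 1 in MLM, and 0 lower. Over all genes 8.76% and 4.94% were called higher. TWIST1 was listed at 0 in all 16 H2087 libraries. VIM, the mesenchymal filament protein, was 61247 to 108510 in MLM derivatives and 29596 to 85419 in MRM derivatives, with LCC4 lowest in both.

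Other genes of the pathway were taken from lists of junction, polarity, identity and splicing genes. Over all genes tested between H2087 LCC and parental cells, 4.94% were called higher and 8.77% lower in MLM, and 8.76% higher and 5.83% lower in MRM, so counts of 0 to 2 per list show nothing particular to a list. In MLM, 0 of 17 tight junction genes were called higher and 1 lower (CLDN1, -2.73 ± 0.59 log2), and 1 of 10 adherens junction genes was higher (CTNNB1, beta-catenin, 0.56). Among desmosome genes 1 of 9 was lower (PKP2, -1.53), among 14 polarity genes 1 was higher (DLG1, 0.76) and 1 lower (SCRIB, -0.51), and 0 of 14 epithelial transcription factors were called. Among epithelial surface and trafficking genes 1 of 21 was lower (RAB11FIP1, -1.51), and among splicing regulators 2 of 12 were higher (MBNL1, 0.39, and RBFOX2, 0.27). Of 13 genes with ESRP-regulated exons 2 were lower (FGFR2, -2.70, and SCRIB again). In MRM the calls in these lists were all in the higher direction: TJP1 (0.69) of 17 tight junction genes, CTNNB1 (0.44) of 10 adherens junction genes, DLG1 (0.51) of 14 polarity genes, HNRNPM (0.35) of 12 splicing regulators, DSC2 (1.12) of 11 desmosome genes, TFAP2A (2.30) and KLF5 (0.84) of 14 transcription factors, MAL2 (3.05), an apical transport protein, and RAB11A (0.74) of 21 surface and trafficking genes, and MUC4 (3.77) of 2 mucins tested. Of 13 genes with ESRP-regulated exons 0 were called in MRM, and gene-level counts do not show which exons were used.

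Moving from MRM to MLM, parental H2087 cells raised the 5 members that swung most and lowered the other 5. CDH1 was 3.80-fold higher in MLM, GRHL2 9.94-fold, ESRP1 7.72-fold, RAB25 15.7-fold and MUC1 2.93-fold. The parental MRM values behind these folds rest on few reads for GRHL2 (8 and 5), RAB25 (11 and 8) and ESRP1 (26 and 15). The 2 libraries of each medium did not overlap for any of the 10. All 10 were called, where 72.6% of the 12524 genes tested were called in either direction. CDH1 changed by 1.92 ± 0.08 (log2 of MLM over MRM, SE; limma, adjusted p = 9.39e-07) and RAB25 by 3.90 ± 0.16 (limma, adjusted p = 9.59e-07). CLDN4 fell by 1.34, CLDN3 by 1.02, EPCAM by 1.01, CLDN7 by 0.75 and ESRP2 by 0.36. The median was 0.60 for the members and 0.03 for all genes. Depth differed between the media in the same libraries, and its part in these changes was not tested.

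Most of the derivatives took the other direction for CDH1. Each of the 6 had more CDH1 in MRM than in MLM, where the parental mean was at 0.263-fold. It was 7.33-fold in LCC3, 4.23-fold in LCC1, 2.73-fold in LCC4, 1.28-fold in LCC5 and 1.05-fold in LCC2. The LCC2 difference was no larger than the 1.06-fold between the parental libraries in MLM. LCC6 gave 29.0-fold, but its MRM library stood close to LCC5 in MRM. MUC1 was likewise higher in MRM in each derivative, by 1.43-fold to 5.29-fold, or to 5.03-fold without LCC6. ESRP1 was lower in MRM in LCC2 (0.284-fold) and LCC5 (0.906-fold), RAB25 in LCC2 (0.391-fold) and GRHL2 in LCC5 (0.762-fold), with GRHL2 at 1.03-fold in LCC2, and these genes were higher in MRM in the other derivatives. CLDN3 was 3.91-fold to 4.92-fold higher in MRM across the derivatives, CLDN4 2.25-fold to 3.37-fold, CLDN7 1.85-fold to 3.89-fold and EPCAM 2.02-fold to 3.05-fold. For these claudins and EPCAM the derivatives and the parental cells moved in one direction.

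**Figure D3:**
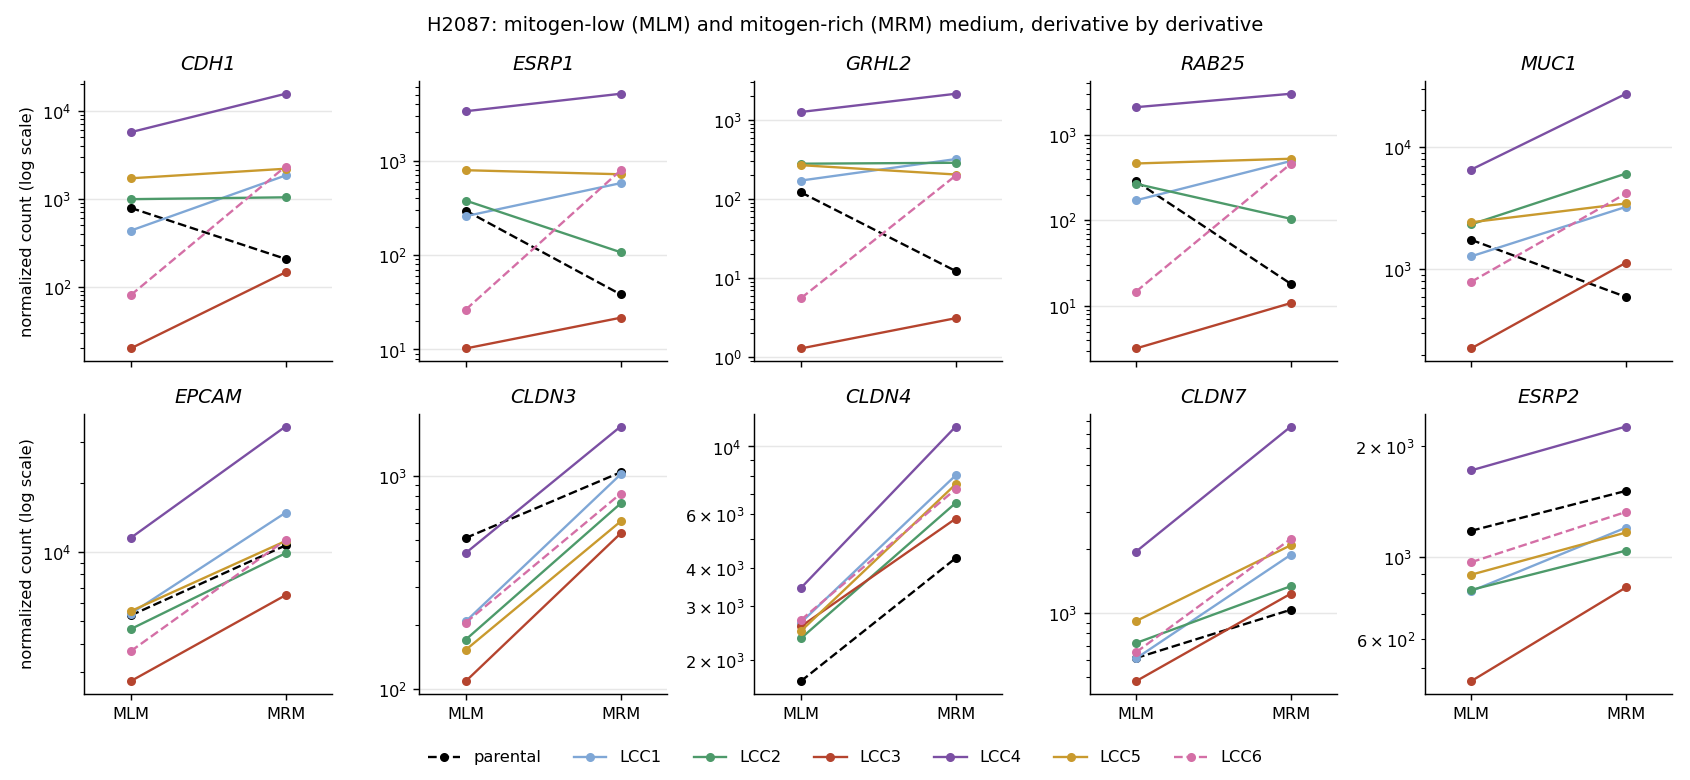
Normalized count (log axis) of each gene in MLM and MRM, 1 line per H2087 derivative and 1 dashed black line for the mean of the 2 parental libraries; LCC6 is dashed because its MRM library stood close to LCC5. The parental line falls from MLM to MRM for CDH1, ESRP1, GRHL2, RAB25 and MUC1, where LCC1, LCC3, LCC4 and LCC6 rise, and all lines rise for the other 5 genes.

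Tested over the 6 derivatives, 4 of 10 members were lower in MLM than in MRM and 0 higher, where 16.7% of 12466 genes were called lower: CLDN3 at -2.11 ± 0.33, CLDN4 at -1.50 ± 0.15, CLDN7 at -1.47 ± 0.43 and EPCAM at -1.34 ± 0.39 (log2, SE; limma, adjusted p = 0.000446, 1.77e-05, 0.0203 and 0.0203). The 2 libraries of a derivative are paired by their origin. With derivative as a block 7 members were lower, where 24.5% of all genes were called lower, and the added members were CDH1 at -1.94 ± 0.53, ESRP2 at -0.50 ± 0.07 and MUC1 at -1.67 ± 0.22 (limma, adjusted p = 0.0148, 0.000550 and 0.000361). With both LCC6 libraries left out, the blocked count was again 7 and CDH1 was -1.35 (limma, adjusted p = 0.0114), while without the block CLDN7 and EPCAM lost their calls, at limma adjusted p of 0.0676 and 0.0638. The median of the members was -1.40 and that of all genes 0.01.

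The LCC effect in MLM minus that in MRM was -3.85 ± 2.48 for CDH1, -5.11 ± 2.88 for RAB25 and -3.23 ± 1.51 for MUC1 (log2, SE). None of the 10 was called by limma, where 10.7% of 12535 genes were called in either direction, and 0 of 10 had an unadjusted p under 0.05 by limma or by edgeR, which called 0 as well. With derivative, or the number of a parental library, as a block 6 were called lower, where 15.8% of all genes were: CDH1, CLDN3, ESRP1, GRHL2, MUC1 and RAB25, at limma adjusted p of 0.0188, 0.000508, 0.0459, 0.0160, 0.000695 and 0.0119. Leaving out both LCC6 libraries gave 6 under the block as well, with CDH1 at -3.27 (limma, adjusted p = 0.00371). The comparison of media in parental cells and that in derivatives enter this difference and are not independent of it.

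Among the other lists, parental H2087 cells had 10 of 17 tight junction genes lower in MLM and 3 higher, 7 of 10 adherens junction genes lower and 1 higher, and 7 of 10 desmosome genes lower and 2 higher, where 34.4% of all genes were called lower and 38.2% higher. Of 21 epithelial surface and trafficking genes 11 were higher and 7 lower, and of 13 epithelial transcription factors 7 were higher and 3 lower. In the derivatives 8 of 17 tight junction genes and 4 of 10 desmosome genes were lower in MLM and 0 higher, where 16.7% of all genes were called lower and 15.9% higher. The median fold change of the tight junction list was -0.41 in parental cells and -1.06 in the derivatives, beside 0.03 and 0.01 for all genes.

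The genes around CDH1 and RAB25 on their chromosomes had median fold changes near 0. For CDH1 on chromosome 16, the median fold change of LCC over parental cells among the 20 nearest tested genes was -0.05 in MLM and 0.01 in MRM in H2087, where CDH1 gave -0.85 and 3.01. For RAB25 on chromosome 1 the neighbours gave 0.01 and 0.04, where RAB25 gave -1.25 and 3.85. The GRHL2 neighbours on chromosome 8 gave -0.21 and -0.02, with 1 as high as 4.86 in MRM, where GRHL2 gave -0.63 and 3.76. The CLDN7 neighbours on chromosome 17 gave -0.33 and 0.10, where CLDN7 gave 0.37 and 1.08. In MLM 8 of the 20 CLDN7 neighbours were called lower and 0 higher, where 8.77% of all genes were called lower. This is a description of position, with no test.

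Markers of other cell types were summed in each H2087 library, and their part in the members' values was not tested. The summed normalized count of 9 fibroblast genes was 276 to 697 in MLM derivatives and 323 to 372 in parental cells, and 475 to 959 against 1040 to 1086 in MRM. The sum of 6 endothelial genes was 98.6 to 303 against 99.1 to 100.9 in MLM and 68.4 to 316 against 63.3 to 109 in MRM. The sum of 8 blood cell genes was 2492 to 5218 against 5798 to 5979 in MLM and 5107 to 8393 against 7221 to 7248 in MRM. CD68, a lysosomal protein also made outside blood cells, led the blood list, and HBB was listed at 0 in the derivatives of both media.

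In HCC1954 both derivatives held less of most members than the parental cells, and CDH1 stayed at 10890 normalized counts or more in every library. CDH1 in MLM was 25345, 25506 and 17421 in the parental libraries, 13736 and 13783 in LCC1 and 13087 and 12432 in LCC2. In MRM it was 25821, 24516 and 25075 in the parental libraries, 13906 and 10890 in LCC1 and 14953 and 14736 in LCC2. The LCC and parental libraries did not overlap in either medium. CDH1 was lower in LCC by -0.76 ± 0.15 in MLM (log2, SE, n = 4 and 3; limma, adjusted p = 0.00644) and by -0.89 ± 0.13 in MRM (limma, adjusted p = 0.00161).

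MUC1 gave the largest drop of the members. In MLM it was 11139, 11463 and 8141 in the parental libraries, 3399 and 3657 in LCC1 and 2854 and 2845 in LCC2. In MRM it was 18086, 18941 and 15892 in the parental libraries, 4618 and 1397 in LCC1 and 5513 and 5187 in LCC2. Every LCC library was below every parental library, and LCC1 library 2 in MRM, which stood apart over all genes, was the lowest, 12.5-fold below the parental mean with a counting interval of 11.9 to 13.1. The other LCC libraries were 2.81-fold to 3.78-fold below it. The fold change was -1.68 ± 0.15 in MLM and -2.25 ± 0.46 in MRM (log2, SE; limma, adjusted p = 0.000361 and 0.00770).

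RAB25 in MLM was 5418, 5138 and 4345 in the parental libraries, 2279 and 2167 in LCC1 and 2564 and 2578 in LCC2. In MRM it was 7339, 7224 and 6723 against 2104 and 1635 in LCC1 and 2647 and 2580 in LCC2. It was lower by -1.05 ± 0.11 in MLM and -1.69 ± 0.17 in MRM (log2, SE; limma, adjusted p = 0.000583 and 0.000450), with no overlap in either medium. ESRP2 was also clear of overlap, at 2037 to 2895 against 3486 to 3617 in MLM and 1888 to 2300 against 3598 to 3931 in MRM, with fold changes of -0.54 ± 0.14 and -0.84 ± 0.09 (limma, adjusted p = 0.0193 and 0.000638). EPCAM fell as well, by 0.56 in MLM and 0.33 in MRM (log2; limma, adjusted p = 0.00110 and 0.0317).

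For ESRP1, GRHL2, CLDN3 and CLDN4 the LCC libraries lay below all parental ones in 1 medium but not in the other, although the LCC effect was called as different between the media for none of them. In MLM, ESRP1 was 13858, 13154 and 15793 in the parental libraries, 15776 and 15693 in LCC1 and 10090 and 9842 in LCC2, so LCC1 lay within the parental range and LCC2 below it. In MRM all 4 LCC libraries were below the parental ones, at 10644 to 14940 against 16863 to 17496, and ESRP1 was called lower at -0.39 ± 0.12 (limma, adjusted p = 0.0400). GRHL2 was lower in MLM by -0.42 ± 0.09 (limma, adjusted p = 0.00864) and gave -0.36 ± 0.15 in MRM (limma, adjusted p = 0.0845), where LCC1 library 2 alone, at 7074, reached the parental range of 6761 to 7104. Without that library GRHL2 was lower in MRM by -0.50 (limma, adjusted p = 0.000793).

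CLDN4 in MLM was 24049, 24454 and 19177 in the parental libraries, 29084 and 30476 in LCC1 and 18252 and 18343 in LCC2. LCC1 was thus above and LCC2 below every parental library, and the fold change over both was 0.06 ± 0.22 (limma, adjusted p = 0.862). In MRM all LCC libraries were lower, at 16118 to 18761 against 28510 to 31548, and CLDN4 fell by 0.80 ± 0.09 (log2, SE; limma, adjusted p = 0.000738). CLDN3 fell by 1.10 in MRM and CLDN7 by 0.48 in MLM and 0.96 in MRM (log2; limma, adjusted p = 0.00880, 0.00921 and 0.0245). In MLM the CLDN3 libraries overlapped because parental library 3 held 325, against 767 and 787 in the other two, and without it CLDN3 was called lower at -0.99 (limma, adjusted p = 0.00925).

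**Figure D4:**
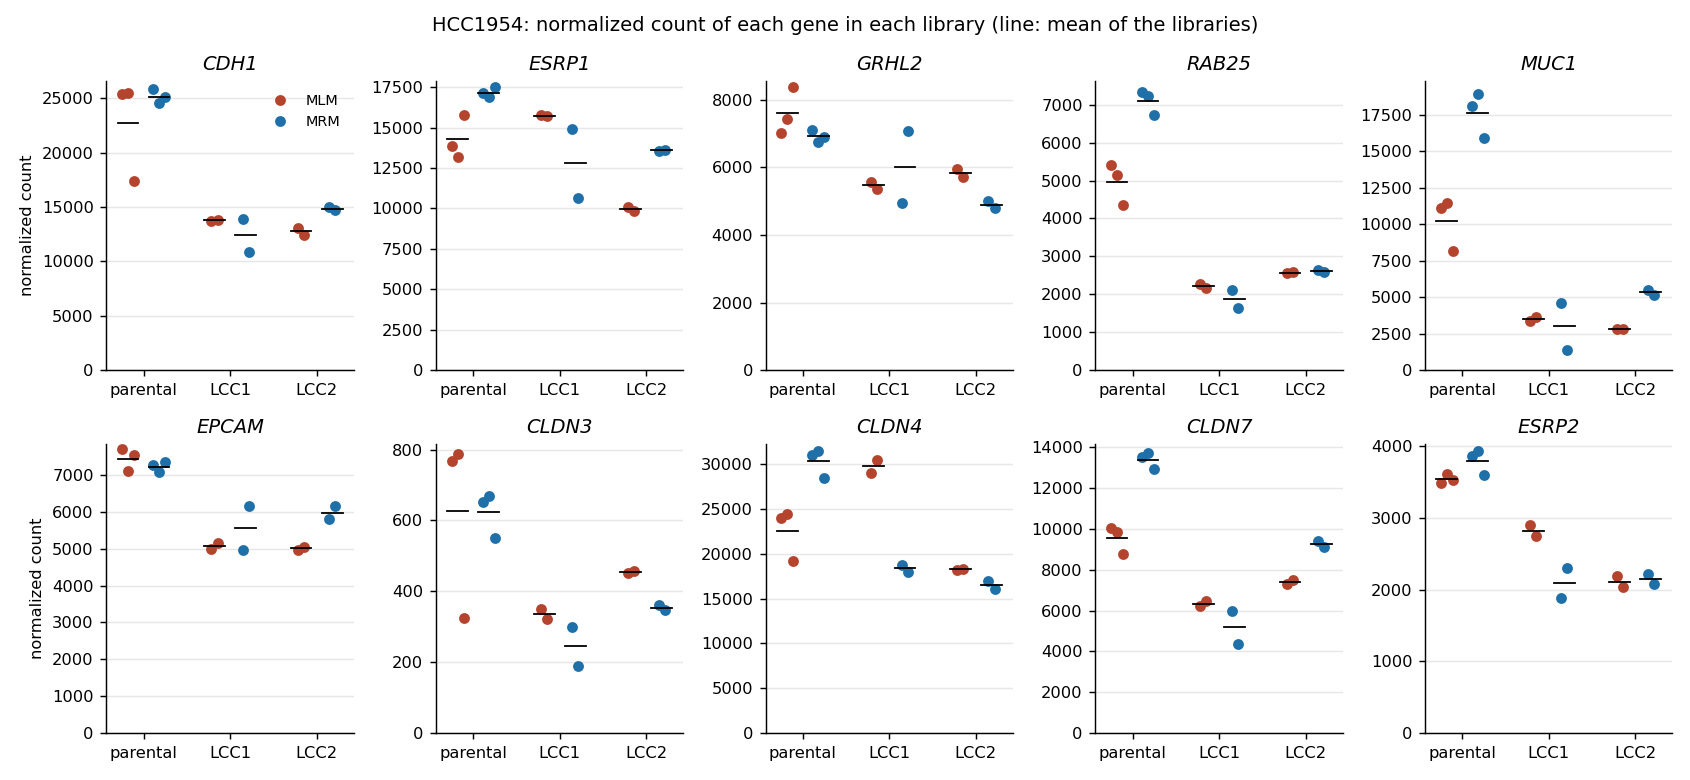
Normalized count of each gene in each HCC1954 library, by cell (parental, LCC1, LCC2) and medium (MLM red, MRM blue), with a line at the mean of the libraries of a group; axes start at 0. LCC libraries lie below the parental ones for CDH1, MUC1, RAB25, EPCAM, CLDN7 and ESRP2 in both media, and LCC1 library 2 in MRM lies apart from its partner for MUC1, ESRP1 and GRHL2.

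In all, 7 of 10 members were called lower and 0 higher in HCC1954 LCC cells in MLM, where 18.9% of the 15186 genes tested were called lower, and 9 of 10 were called lower and 0 higher in MRM, where 19.3% of 15432 were. The median fold change of the members was -0.55 in MLM and -0.87 in MRM (log2), beside -0.00 and -0.00 for all genes. Since libraries of 1 derivative share their origin, the test was also run on 1 mean per LCC derivative, with the 3 parental libraries kept separate. It called 3 members lower in MLM (EPCAM, MUC1, RAB25), where 9.19% of genes were called lower and CDH1 had a limma adjusted p of 0.0559, and 10 lower in MRM, where 20.1% were. In MRM the averaging removed the spread between the LCC1 libraries, which differed by 108 per degree of freedom. The count of 10 is therefore not a stricter check. Scaling to library totals, which moved the median of all genes by 0.11 and 0.12 in the 2 media, left 5 in MLM, without CLDN7 and GRHL2, and 6 in MRM, without CLDN7, EPCAM and ESRP1. In MRM, CLDN7, EPCAM and ESRP1 also lost their calls without any one of the 3 parental libraries, and in MLM ESRP2 lost its call without parental library 1 or 2 (limma, adjusted p = 0.0615 and 0.0684).

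LCC2 and LCC1 of HCC1954 were compared over both media, with 1 difference fitted for the 2 media together. For CLDN4 the media were unlike: LCC2 held 18252 and 18343 against 29084 and 30476 in LCC1 in MLM. In MRM it held 16955 and 16118 against 18761 and 18025. The LCC1 level in MRM also rests on the pair of libraries that differed by 108 per degree of freedom. CLDN3 (0.50 ± 0.14), CLDN7 (0.54 ± 0.15) and RAB25 (0.35) were higher in LCC2 and CLDN4 (-0.43 ± 0.11) was lower (log2, SE; limma, adjusted p = 0.0211, 0.0183, 0.0186 and 0.0156). That is 4 of 10, where 45.8% of 15467 genes were called in either direction. CDH1 did not pass, at 0.08 ± 0.11 with a 95% interval of -0.16 to 0.32 (limma, adjusted p = 0.563). Each of the 4 calls was lost without some single library, and that of CLDN4 also with scaling to library totals (limma, adjusted p = 0.0678).

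Between the media, no member of HCC1954 differed by 1 log2 unit or more in these fits. The lines were normalized separately, so the difference from H2087 was not tested. In parental HCC1954 cells 5 of 10 members were lower in MLM than in MRM and 0 higher, where 20.9% of 14877 genes were called lower: MUC1 by -0.80, RAB25 by -0.52, CLDN7 by -0.49, CLDN4 by -0.44 and ESRP1 by -0.27 (log2; limma, adjusted p = 0.00430, 0.00427, 0.00209, 0.0151 and 0.0286). The call of CLDN4 was lost without parental library 1 or 2 in MRM and that of ESRP1 without any of 5 single libraries. CDH1 was -0.17 ± 0.15 (95% interval -0.51 to 0.18; limma, adjusted p = 0.388). In LCC cells CLDN3 and CLDN4 were higher in MLM, by 0.42 each (limma, adjusted p = 0.0479 and 0.0213), where 20.0% of 15467 genes were called higher, and CDH1 was -0.03 ± 0.11 (limma, adjusted p = 0.849). The CLDN3 call held in only 4 of 13 alternative settings, edgeR not among them, and the CLDN4 call in 10 of 13. The LCC effect in MLM minus that in MRM was called for 0 of 10 members by limma, where 0.156% of 15397 genes were called, and 2 members had an unadjusted p under 0.05 by limma, CLDN4 at 0.86 ± 0.25 and RAB25 at 0.64 ± 0.21, as did 2 by edgeR, which called 0.

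The wider epithelial lists are read beside the shares over all genes in HCC1954 LCC against parental cells, 18.9% lower and 17.6% higher in MLM and 19.3% lower and 19.2% higher in MRM. In MLM, 5 of 19 tight junction genes were lower and 1 higher, with ILDR1 at -2.87 ± 0.35, CLDN1 at -1.61 and LSR, a tricellular junction protein, at -1.48 (log2), a count not far from the share over all genes. Of 12 adherens junction genes 7 were lower and 1 higher, of 10 desmosome genes 4 were lower (PERP, -1.23; DSP, desmoplakin, -0.56), and of 14 polarity genes 7 were lower (PARD3, -0.86). Among 14 epithelial transcription factors 7 were lower and 0 higher, with EHF at -1.87, GRHL3 at -1.76, GATA3 at -1.04 and FOXA1 at -0.99. Of 21 surface and trafficking genes 14 were lower and 0 higher, with a list median of -0.72, including MAL2 (-1.46) and CD24 (-1.12). Each of these values is from limma with an adjusted p under 0.05 over all genes.

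In MRM the counts were 6 lower and 1 higher of 18 tight junction genes, 7 and 1 of 12 adherens junction genes, 3 and 0 of 10 desmosome genes, 8 and 1 of 14 polarity genes and 9 and 1 of 14 transcription factors (GRHL3, -2.66; EHF, -1.86; GRHL1, -1.27). Those of the tight junction and desmosome lists were again not far from the 19.3% of all genes called lower. Of 21 surface and trafficking genes 17 were lower and 0 higher, with a median of -0.82 and MAL2 at -1.51. Among mucins 3 of 6 were lower, MUC4 by -4.96, MUC20 by -3.67 and MUC16 by -2.61, while MUC2, at a mean of 10.8, was higher. MUC2 lay just above the filter on low values, so its LCC values may have let it pass and set its direction in advance. The splicing regulators split, with 4 of 11 lower (MBNL3, -1.30; PTBP2, -1.04; HNRNPM, -0.60) and 1 higher (MBNL2, 0.96). Of 13 genes with ESRP-regulated exons 4 were lower and 3 higher, with NUMB at -0.85 and ARHGEF11 at 0.35.

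Of 12 repressors of CDH1 and mesenchymal markers, 8 passed the filter on low values in HCC1954, and 5 of these were called higher in LCC cells and 0 lower in each medium, where 17.6% of all genes in MLM and 19.2% in MRM were called higher. TWIST1 and CDH2 passed the filter through their LCC values, which set their direction in advance. The count of 5 of 8 therefore cannot be set plainly against these shares. TWIST1 was 0 to 4.14 in the 6 parental libraries and 129 to 339 in the 8 LCC libraries, with no overlap. FN1 was higher by 2.98 ± 0.29 in MLM and 2.48 ± 0.38 in MRM (log2, SE; limma, adjusted p = 0.000430 and 0.00217). CDH2, N-cadherin, was 0 to 5.22 in parental libraries and 9.15 to 90.6 in LCC libraries. ZEB1, which H2087 expressed at 518 to 1945, was at 1.01 to 10.9 in all HCC1954 libraries. VIM was 2550 in LCC1 library 2 in MRM against 263 in its partner.

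The sums of other cell types' markers also differed in HCC1954, and their part in the members' values was not tested. Fibroblast genes summed to 944 to 1305 in LCC and 802 to 1037 in parental cells in MLM, and to 1078 to 1727 against 788 to 847 in MRM, where COL1A1 and FAP led and LUM was listed at 0 in the LCC libraries. Blood cell genes summed to 540 to 1398 against 469 to 1172 in MLM and 687 to 1066 against 1393 to 1445 in MRM, and endothelial genes to 854 to 1452 against 743 to 1151 and 848 to 1429 against 900 to 955.

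The range of CDH1 over the 14 HCC1954 libraries was 1.25 (log2), beside a median of 1.15 over genes. MUC1 had the widest range of the members, 3.76, and EPCAM the narrowest, 0.63. The genes most like CDH1 in pattern, among 11695, were TMEM167B (0.109), ADAM15 (0.121), TP53BP1 (0.121), LMBR1L (0.123), HEATR5A (0.124) and LRRC8D (0.125), in root mean square difference. The nearest member was ESRP2 at rank 334, followed by CLDN7 at 352 and EPCAM at 768, and MUC1 was at 8610. The measure counts the size of the moves as well as their direction. MUC1 had a range of 3.76 against 1.25 for CDH1, and like CDH1 was lower in every LCC library than in every parental one. The CDH1 neighbours on chromosome 16 gave a median fold change of LCC over parental cells of 0.06 in MLM and 0.12 in MRM, against -0.76 and -0.89 for CDH1. The RAB25 neighbours gave -0.12 and -0.34, against -1.05 and -1.69 for RAB25, and the MUC1 neighbours 0.01 and -0.32, against -1.68 and -2.25. In MRM 7 of 20 RAB25 neighbours and 6 of 20 MUC1 neighbours were called lower and 0 higher, where 19.3% of all genes were called lower. The part of position was not tested.

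Set side by side, the derivative that lost CDH1 most completely was H2087 LCC3, which was at 19.9 in MLM and 146 in MRM, below both parental libraries in each medium. LCC6 of H2087 was below the parental cells in MLM only, and its MRM library is the one that stood close to LCC5. LCC1 of H2087 was mildly below the parental cells in MLM only, at 433. In HCC1954 no library fell below 10890. In LCC3 the low CDH1 in MLM came with GRHL2, ESRP1 and RAB25 at 2, 16 and 5 reads, while MUC1 was at 0.129, CLDN3 at 0.213, ESRP2 at 0.391, EPCAM at 0.518, CLDN7 at 0.777 and CLDN4 at 1.51 of the parental mean.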

How the data were processed

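RNA-seq values of 30 libraries were used. Per the file headers, the authors deposited normalized signal values by gene for each library. In these 100% of values were whole multiples of 1 step per library, within 0.01 reads, so they are reads divided by a size factor, and the reads were recovered. The size factors fit both media of a line together, so media were compared within a line. DESeq2 1.8.1, HTSeq 0.6.1p1, Bowtie2 2.2.4 and the builds GRCh37 and hg19 appear in the submitters' processing notes, with no role or order.

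Groups were compared with limma 3.58.1 under R 4.3.3 on log2 values with a pseudocount of 1, with a two-sided test and a trended prior, over genes with a mean of at least 10. A call needs an adjusted p under 0.05 (Benjamini-Hochberg over all genes tested). edgeR 4.0.16 (quasi-likelihood, TMM) on the recovered reads, a pseudocount of 10, no filter, scaling to library totals, a replicate block and leaving out each library were alternatives. The fits were tested on simulated data. Same-derivative H2087 LCC libraries are paired by origin, and the correlation of their deviations across media was 0.411 to 0.756, whereas LCC6 in MRM gave 0.487 with LCC5 in MLM. The members and lists were chosen with earlier results of these data known. The text names all members, up to 4 called genes per list by fold size and the 6 genes most like CDH1 per line; ZEB1, VIM, TWIST1 and CDH2 levels were added after their values were seen.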

Additional observations from a re-analysis of the deposited data

Results flagged for a closer look

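Among 20 groups of 6 H2087 LCC libraries, 1 per member and medium, 2 held a library far from the rest, and chance flags about 1 in 20 groups. CLDN4 in MLM was 3445 in LCC4 against 2708 in the next library, a gap of 0.635 of the range on the log2 scale, where 0.625 is the critical value for 6. CLDN7 in MRM was 7559 in LCC4 against 2235 in the next, a gap of 0.672 of the range on that scale.

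In H2087 the LCC effect differed between the media for 6 members with derivative as a block (log2, MLM minus MRM): CDH1 by -3.85, CLDN3 by -1.09, ESRP1 by -3.87, GRHL2 by -4.39, MUC1 by -3.23 and RAB25 by -5.11. Without the block none of these was called by limma.

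The lines went opposite ways for some members, and the difference between lines was not tested. In MRM all LCC libraries were above all parental ones in H2087 and below them in HCC1954 for CLDN4, CLDN7 and MUC1, with effects 1.62, 2.05 and 5.19 log2 apart. In parental cells all MLM libraries were above all MRM ones in H2087 and below them in HCC1954 for ESRP1, MUC1 and RAB25, with effects 3.19, 2.35 and 4.42 apart.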

How the results depend on the processing

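The alternatives other than leaving out 1 library include the H2087 fits without both libraries of LCC6 or of LCC4. Over these alternatives, 534 of the members' fold changes kept their direction and side of the threshold. Another 21 gained and 16 lost a call, and 9 changed sign. Over those leaving out 1 library the numbers were 883, 13, 48 and 36. With edgeR the H2087 LCC effect in MLM changed sign for CDH1 (0.89), ESRP1 (1.41), GRHL2 (1.43), MUC1 (0.35), RAB25 (0.79) and EPCAM (0.051), none of them called, and the cause was not tested. For each of these genes the mean normalized count in MLM was higher in LCC than in parental cells, while limma averages log2 values. For CDH1 these means were 1484 and 785, and the LCC mean was 644 without LCC4. Scaling to library totals turned EPCAM between media in HCC1954 parental cells (-0.026), GRHL2 between media in LCC cells (-0.0077) and GRHL2 in LCC2 against LCC1 (0.054).

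The count of members between media in H2087 LCC cells was 7 with the replicate block, 7 with the block and without LCC6, and 2 without LCC6. In HCC1954 LCC cells it was 1 without a filter, with edgeR and with the replicate block. The replicate block raised the genes called for the difference between media in H2087 to 3426 (3576 also without LCC6), with 6 members in both, and in HCC1954 to 116, against 12 by edgeR and 13 without a filter. With 1 mean per HCC1954 LCC derivative 2580 genes and 3 members were called in MLM. H2087 parental and HCC1954 libraries share only a number (correlations 0.018 to 0.116), and the block changed no other count by over 1.5 times.

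Leaving out 1 library moved the genes called between 113 and 2448 and the members between 0 and 2 for H2087 LCC against parental cells in MLM, 141 to 2288 and 0 to 5 in MRM, 3660 to 5190 and 6 to 8 for HCC1954 in MLM, and 3669 to 7431 and 6 to 10 in MRM. Between media the ranges were 6532 to 10305 and 10 to 10 in H2087 parental cells, 3449 to 4236 and 4 to 4 in H2087 LCC cells, 4396 to 10248 and 3 to 6 in HCC1954 parental cells and 3725 to 7433 and 0 to 4 in HCC1954 LCC cells. LCC2 against LCC1 gave 5563 to 8583 and 1 to 5, and the differences between media 409 to 1633 and 0 in H2087 and 0 to 50 and 0 in HCC1954. Where this leaves 1 parental library in H2087, that library is assumed to vary like the LCC ones. The cause of these moves was not tested. Depth limits the LCC3 values of GRHL2 and RAB25, which rest on 2 to 7 reads. It also limits the H2087 parental values in MRM and every fold change taken against them. These rest on 8 and 5 reads for GRHL2, 11 and 8 for RAB25 and 26 and 15 for ESRP1.

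Single fold changes that changed sign in these fits were uncalled. In H2087 LCC against parental cells in MLM they ran from -1.59 to 0.033 for CDH1, -0.32 to 0.099 for EPCAM, -1.32 to 0.33 for ESRP1, -1.43 to 0.40 for GRHL2 and -0.73 to 0.24 for MUC1, and in MRM from -0.043 to 0.44 for EPCAM. In HCC1954 they ran from -0.071 to 0.18 for CLDN4 against parental cells in MLM, from -0.26 to 0.017 for CDH1 and -0.32 to 0.32 for CLDN3 between media in parental cells, and from -0.14 to 0.024 for CDH1, -0.16 to 0.065 for CLDN7 and -0.24 to 0.020 for ESRP1 in LCC cells. LCC2 against LCC1 gave -0.028 to 0.13 for CDH1, -0.028 to 0.095 for EPCAM, -0.16 to 0.052 for GRHL2 and -0.10 to 0.59 for MUC1. The difference between media gave -0.34 to 0.045 for ESRP2 in H2087, and -0.046 to 0.23 for CDH1 and -0.12 to 0.073 for GRHL2 in HCC1954. One exception was CLDN3 in parental HCC1954 cells, called at 0.32 without library 3 in MLM.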
